A study of Mus musculus with 13 samples.

Results

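The collagen genes were taken as the protein-coding genes of the mouse genome build mm10 whose symbol is Col, a number, a and a number, such as Col1a1. GENCODE M21 holds 44 such genes among 21951 protein-coding genes. They were split into 11 fibrillar collagens, 8 collagens of basement membranes and 25 others. Collagens are the triple-helical proteins of the extracellular matrix. Fibrillar collagens form the tensile fibres of dermis, bone and cartilage, type IV collagens form the sheet under epithelia and vessels, and smaller families bind fibrils, span membranes or form beaded filaments. In skin, fibroblasts are the main source of the fibrillar collagens, while tumour cells can also make matrix of their own.

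H3K27ac, acetylation of lysine 27 of histone H3, marks active promoters and enhancers. Peaks of this mark were deposited for 9 cell lines made from melanomas of mice that carried an activated Tyr::NRAS transgene, were heterozygous for Cdkn2a loss and had floxed Cdh1 alleles. Cdh1 encodes the adhesion protein E-cadherin. In Ecad mice (2 male and 2 female lines) the floxed alleles were intact, and in ΔEcad mice (2 male and 3 female lines) Tyr::CreA, driven by the tyrosinase promoter, deleted Cdh1 in the melanocyte lineage. No line was treated. Each line is 1 list without a repeat precipitation, so p-values measure the spread between lines, and lines differ from each other in more than sex and genotype. The 4 input libraries were not analysed here.

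A gene's promoter was called in a line when a peak lay within 1 kb of any of its annotated transcription starts. A gene-body peak is one over the gene that is no nearer than 1 kb to any start. The acetylated length of a gene is the number of bases covered by peaks over the gene and 1 kb on either side. The lists held 20741 (Ma_1069) to 41663 (Ma_1007) peaks and covered 29.5 to 67.2 Mb, and the 3 female ΔEcad lists were among the 4 that covered least. Depth is unknown, so a gene without a peak is a gene without a call, not one shown to lack the mark. Of 7 melanocyte genes, 6 (Sox10, Mitf, Dct, Tyr, Pmel and Mlana) had a called promoter in every list, and Tyrp1 in 6. Promoters of the 5 endothelial, 4 blood and 4 keratinocyte genes were called in none. Among 8 fibroblast genes, Pdgfrb, Dcn, Lum, Thy1 and Twist2 were called in none, while Fap was called in 5 lists, Postn in 4 and Pdgfra in 1. The fibroblast list stood higher in Ecad lines, where 1 to 3 of the 8 promoters were called against 0 or 1 in a ΔEcad line, with summed acetylated lengths of 2.15 to 9.44 kb and 0.423 to 2.81 kb. Among 4 pericyte genes only Cspg4 was called, in 5 lists, and their summed length was 5.40 to 9.53 kb in the female ΔEcad lines and 12.3 to 23.7 kb in the others. Endothelial genes summed to 2.17 to 5.57 kb in Ecad and 0 to 2.76 kb in ΔEcad lines, keratinocyte genes, mostly through Cdh1, to 1.66 to 3.16 kb in female ΔEcad and 4.45 to 8.79 kb in the other lines, and blood genes to 0 to 1.82 kb in female ΔEcad and 0 kb in the other lines. The melanocyte genes summed to 82.9 to 103 kb in the female ΔEcad lines and 93.2 to 145 kb in the others. Of all protein-coding promoters, 40 to 48.6% were called in an Ecad line and 25.3 to 39.5% in a ΔEcad line. Of all genes with a peak, 79.7% had a lower mean acetylated length in ΔEcad lines. The part of these cell types in the collagen values was not tested. The promoter of Cdh1 itself was called in no list, Ecad lines included, although peaks covered 1.66 to 8.79 kb of the gene, so it gives no check of the genotype labels.

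The following 7 sequences are shown: 2 starts of Col15a1, the promoter of Col20a1, those of Col9a2 and Col11a2, whose calls differed most between the groups, and the cores of a peak inside Col5a3 and of one inside Col4a4, each present in all 9 lists. At the Col9a2 start printed here only 1 list had a peak within 1 kb, so its differing call rests on another annotated start. Promoters are from RefSeq (GRCm38.p6) and run from 250 bases before to 50 after a start on the strand of the gene. The other 3 are 300 bases of the same genome, on the plus strand. Capitals mark matches on either strand to TATAAA (the TATA box), CCAAT (the site of NF-Y), GGGCGG (the GC box of Sp1), TGANTCA (the AP-1 site), GGAATG (the TEAD site), CATGTG (an E-box bound by MITF) or ACAAAG (a SOX site). The last pair of motifs was added after the data had been seen.
Col20a1 promoter (chr2:180986285-180986584, plus strand): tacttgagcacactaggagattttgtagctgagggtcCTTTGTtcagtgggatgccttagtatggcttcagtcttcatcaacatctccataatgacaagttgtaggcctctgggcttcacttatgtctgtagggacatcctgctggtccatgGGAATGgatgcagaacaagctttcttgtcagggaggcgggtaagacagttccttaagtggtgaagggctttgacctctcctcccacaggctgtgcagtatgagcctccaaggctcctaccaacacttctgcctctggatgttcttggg
Col15a1 first promoter (chr4:47207762-47208061, plus strand): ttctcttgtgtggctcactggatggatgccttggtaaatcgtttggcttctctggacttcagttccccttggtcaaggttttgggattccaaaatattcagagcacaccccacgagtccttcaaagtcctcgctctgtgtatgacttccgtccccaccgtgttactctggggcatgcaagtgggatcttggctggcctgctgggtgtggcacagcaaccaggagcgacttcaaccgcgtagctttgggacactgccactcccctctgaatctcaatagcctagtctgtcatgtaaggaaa
Col15a1 internal start (chr4:47233017-47233316, plus strand): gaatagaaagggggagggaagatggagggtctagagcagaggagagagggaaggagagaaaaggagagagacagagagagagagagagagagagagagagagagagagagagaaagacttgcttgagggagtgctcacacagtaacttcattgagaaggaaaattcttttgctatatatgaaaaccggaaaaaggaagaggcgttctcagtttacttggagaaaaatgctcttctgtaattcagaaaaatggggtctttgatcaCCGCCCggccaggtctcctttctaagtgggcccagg
Col9a2 promoter (chr4:121039316-121039615, plus strand): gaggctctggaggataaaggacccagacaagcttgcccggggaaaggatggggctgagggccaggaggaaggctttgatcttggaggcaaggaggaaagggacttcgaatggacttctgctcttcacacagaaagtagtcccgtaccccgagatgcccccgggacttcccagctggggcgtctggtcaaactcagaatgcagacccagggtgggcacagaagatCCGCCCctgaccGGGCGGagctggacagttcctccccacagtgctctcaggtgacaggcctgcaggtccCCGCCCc
Col11a2 promoter (chr17:34038888-34039187, plus strand): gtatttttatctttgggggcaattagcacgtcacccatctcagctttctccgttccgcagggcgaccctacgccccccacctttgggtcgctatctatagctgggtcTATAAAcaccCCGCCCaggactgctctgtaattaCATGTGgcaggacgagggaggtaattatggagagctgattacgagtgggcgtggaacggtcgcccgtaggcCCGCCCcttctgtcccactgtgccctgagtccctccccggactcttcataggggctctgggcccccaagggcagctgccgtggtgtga
Col5a3 intronic peak, core (chr9:20793708-20794007, plus strand): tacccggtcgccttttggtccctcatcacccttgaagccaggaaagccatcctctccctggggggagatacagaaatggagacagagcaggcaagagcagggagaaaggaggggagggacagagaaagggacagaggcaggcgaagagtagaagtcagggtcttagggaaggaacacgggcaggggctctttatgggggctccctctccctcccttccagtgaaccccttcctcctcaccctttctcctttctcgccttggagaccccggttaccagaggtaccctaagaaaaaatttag
Col4a4 intronic peak, core (chr1:82475917-82476216, plus strand): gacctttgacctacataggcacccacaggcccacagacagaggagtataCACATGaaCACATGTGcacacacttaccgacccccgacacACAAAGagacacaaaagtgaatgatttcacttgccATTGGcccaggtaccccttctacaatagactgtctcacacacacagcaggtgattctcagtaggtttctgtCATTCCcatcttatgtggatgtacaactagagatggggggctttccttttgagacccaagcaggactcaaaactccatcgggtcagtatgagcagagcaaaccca
The Col20a1 promoter holds a GGAATG and an ACAAAG, the first Col15a1 promoter holds none of the 7 motifs, and the window of its internal start holds 1 GC box. The Col9a2 promoter holds 3 GGGCGG boxes, and that of Col11a2 a TATAAA, 2 GGGCGG and a CATGTG. The Col5a3 core holds none of them. The Col4a4 core holds 3 matches to CATGTG, of which a pair overlaps on opposite strands. It also holds 1 match each to the SOX, NF-Y and TEAD motifs. For scale, 17.5% of 256104 windows of 300 bases around the peak summits of the 9 lists hold CATGTG and 24.6% hold ACAAAG. Of 32851 RefSeq promoters, 35.7% hold GGGCGG, 18.7% ACAAAG, 14.7% GGAATG, 14.2% CATGTG and 13.6% TATAAA.

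Few collagen promoters were marked. The number called was 8 in Ma_1007 and 4 in Ma_1181 (male Ecad), 7 in Ma_1014 and 6 in Ma_1039 (female Ecad), 4 in Ma_1062 and 8 in Ma_1456 (male ΔEcad), and 4 in Ma_1057, 5 in Ma_1064 and 3 in Ma_1069 (female ΔEcad). These are 6.82 to 18.2% of the 44 genes, while of all protein-coding promoters 48.6, 43.8, 41.1, 40, 38.4, 39.5, 30.1, 33.3 and 25.3% were called in the lists in that order. In each of the 9 lists the share of collagens was below that of all genes. The reverse was seen inside the genes. Gene-body peaks lay in 11 to 20 collagens, or 25 to 45.5%. Over all genes the share was 24.7, 18.8, 21.9, 21.6, 19, 23, 18.5, 20.8 and 16.3% in the lists in the same order, and in every list that of the collagens was higher. Collagen genes are long, with a median of 114 kb against 17.4 kb for all protein-coding genes, and were not matched for length here.

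**Figure D1:**
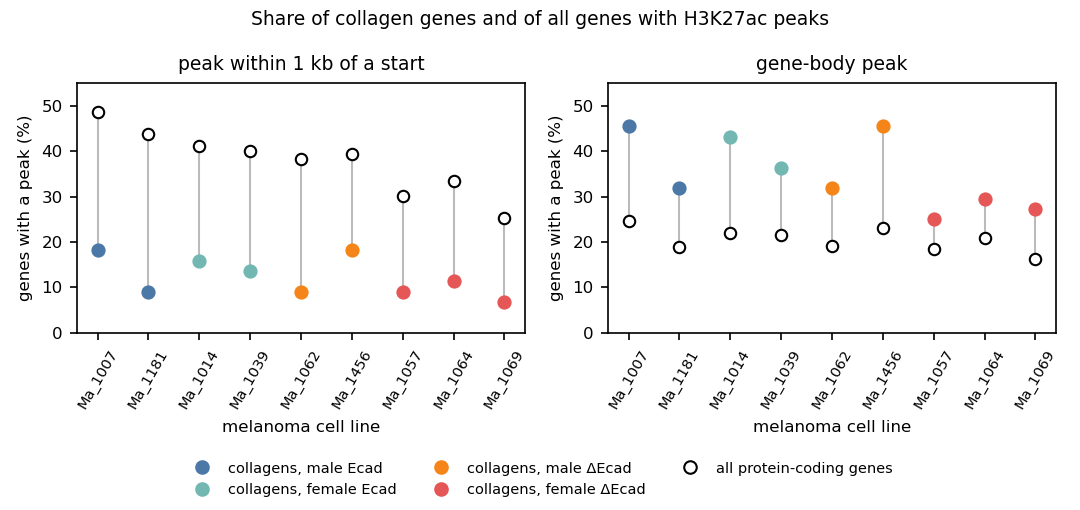
Share of genes with an H3K27ac peak within 1 kb of a start (left) and with a gene-body peak (right) in each of the 9 lines, in percent of genes. Filled points are the 44 collagens, coloured by group, and open points are all 21951 protein-coding genes. Collagens lie below all genes at the promoter and above them in the gene body in every line.

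Over the 9 lists, 2 collagens had a called promoter throughout (Col15a1 and Col20a1), against 21.1% of all protein-coding genes. Another 13 were called in 1 to 8 lists (31.8% of all genes), and 29 in none (47.1% of all genes). Of these 29, 17 had peaks over the gene only, and 12 had no peak in any list (38.2% of all genes had none). The 12 were Col1a1, Col3a1 and Col27a1 among the fibrillar collagens, Col4a6 among those of basement membranes, and Col6a1, Col6a2, Col6a4, Col6a5, Col6a6, Col7a1, Col13a1 and Col26a1 among the others. Col1a1 and Col3a1 encode the main chains of dermal types I and III. Type VI collagen builds beaded filaments, and 5 of its 6 genes had no peak at all. Type VII collagen forms the fibrils that anchor the epidermal basement membrane.

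**Figure D2:**
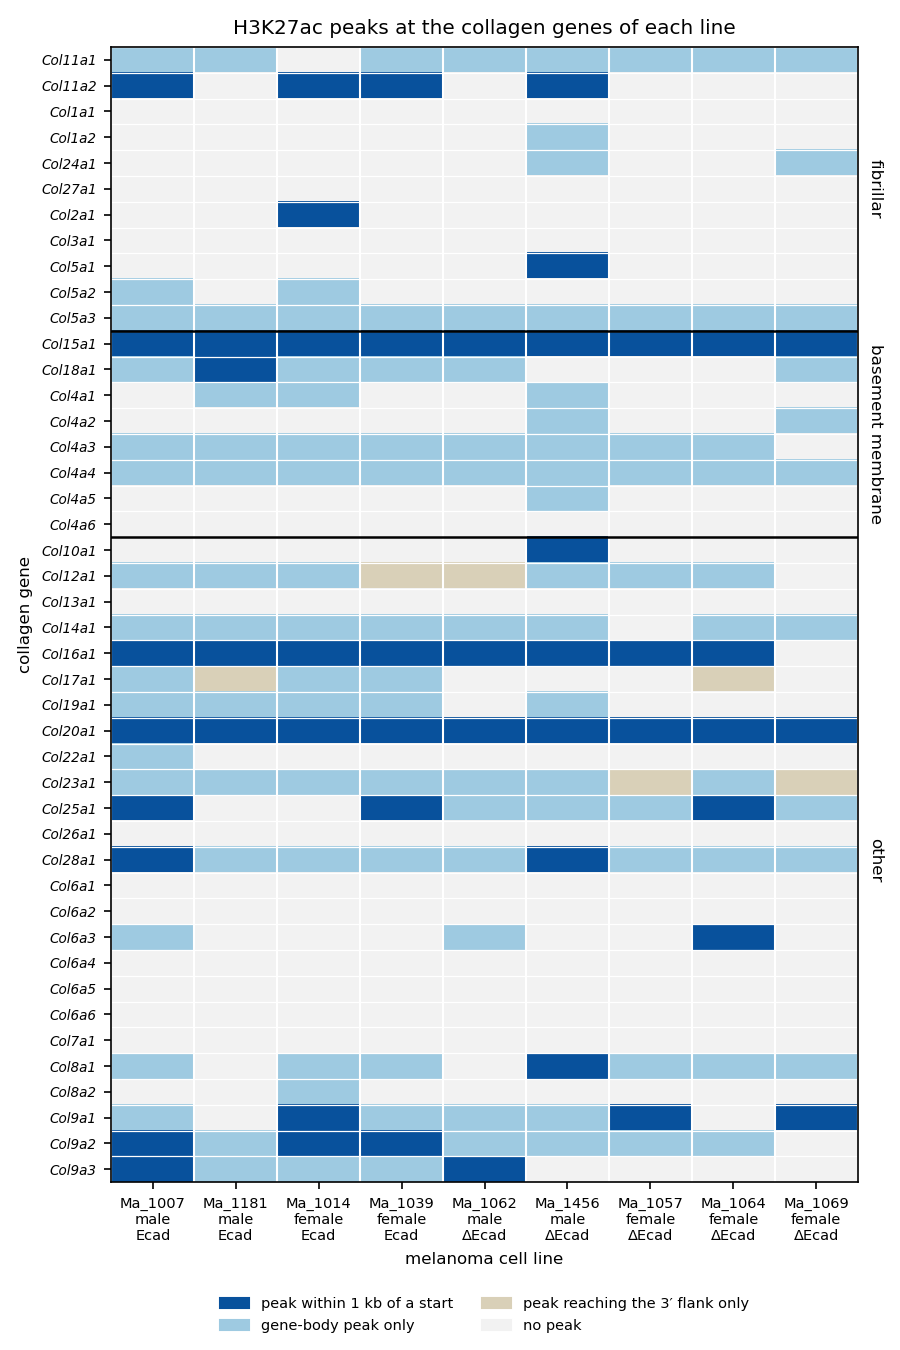
Map of H3K27ac calls over the 44 collagen genes (rows, by class) in the 9 lines (columns). Dark blue is a peak within 1 kb of a start, light blue a gene-body peak only, tan a peak only in the 1 kb after the gene, and grey no peak. Col15a1 and Col20a1 are dark in all 9 lines and 12 genes are grey throughout.

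The absence of calls at Col1a1 was not an absence of peaks around it. In all 9 lists a peak lay 18.6 to 19.1 kb from its first start, at the 69.6th to 96.8th percentile of its list by −log10 q. This value is the significance of a peak over background in the authors' lists. In the Ecad lists and that of Ma_1062 the peak near Col1a1 lay within 1 kb of a start of Gm24877. At Col3a1 the nearest peak was 483 kb away or more in 5 lists and 11.4 kb away in Ma_1456. The Ma_1456 peak was weak, at the 0.0758th percentile of its list. In Ma_1181, Ma_1039, Ma_1057 and Ma_1064 the peak nearest to Col3a1 lay within 1 kb of a start of Wdr75. Col4a1 and Col4a2, which share a bidirectional promoter and encode the most common type IV chains, had no promoter call in any list. Gene-body peaks were found in 3 lists for Col4a1 (Ma_1181, Ma_1014 and Ma_1456) and in 2 for Col4a2 (Ma_1456 and Ma_1069).

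CpG-rich collagen promoters were seldom marked. RefSeq promoters were found for 35 of the 44 genes. A CpG observed over expected ratio of at least 0.6, a limit chosen after the data had been seen, was met by 11 collagens and by 35.8% of 32851 promoters of all genes, non-coding ones included. Of all CpG-rich promoters, 77.5% had a peak within 1 kb in at least 1 list, against 3 of the 11 collagens (27.3%): Col5a1, Col25a1 and Col11a2. Of CpG-poor promoters, 20.3% had a peak, against 6 of 24 collagens (25%). The promoters of Col4a1 (0.902) and Col4a2 (0.818) were CpG-rich and unmarked. Col20a1, called in all 9 lists, had a ratio of 0.0536.

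**Figure D3:**
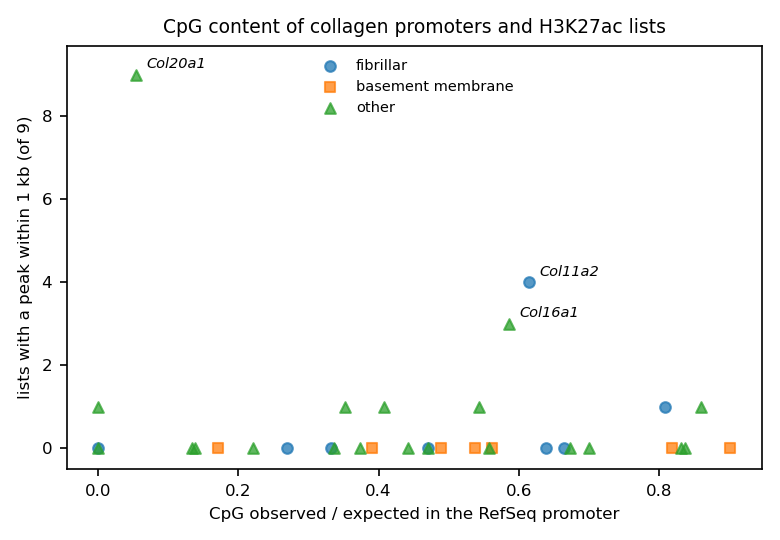
CpG observed over expected in the 300-base RefSeq promoter (x) against the number of the 9 lists with a peak within 1 kb of that RefSeq start (y) for 35 collagens, by class. Col20a1 stands at 9 lists with a ratio of 0.0536, and 26 promoters stand at 0.

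Col5a3 carried the collagen peak with the highest −log10 q in each of the 9 lists. It encodes the α3 chain of type V collagen, a minor fibrillar collagen, and lies on the minus strand of chromosome 9 (20770050 to 20815067). A single wide peak region (20788565 to 20798118 over all lists) lay in introns and exons around 21.2 kb from the only annotated start, with its strongest summit in an intron. No start of another gene lay within 1 kb. Its −log10 q was at the 99.2nd to the 99.99th percentile of the peaks of each list, with fold enrichments over local background of 34.8 (Ma_1069) to 155 (Ma_1181). The promoter of Col5a3 had no call in any list.

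The Col5a3 acetylated length was 10.3 kb in Ma_1007 and 9.23 kb in Ma_1181, 7.56 kb in Ma_1014 and 7.86 kb in Ma_1039, 7.64 kb in Ma_1062 and 7.48 kb in Ma_1456. It was only 3.07 kb in Ma_1057, 3.37 kb in Ma_1064 and 3.30 kb in Ma_1069, the female ΔEcad lines. All 3 female ΔEcad values lay below the other 6 and the groups did not overlap. The means were 3.25 ± 0.159 kb (SD, n = 3) and 8.34 ± 1.15 kb (SD, n = 6), a difference of -5.10 kb (exact permutation test, two-sided, p = 0.0119, the smallest this design allows). Adjusted over all 13574 genes with a peak the p was 0.0915 by the Benjamini-Hochberg method. A lower length with an unadjusted p under 0.05 was found in 24.4% of all those genes in this comparison, and a higher one in 1.5%. Scaled to the Mb each list covered, the Col5a3 groups still did not overlap (p = 0.0119, adjusted p = 0.151, exact permutation test), while 12.8% of all genes were lower and 4.93% higher. Between ΔEcad and Ecad lines the length differed by -3.76 kb (p = 0.0476, adjusted p = 0.284, exact permutation test), with p = 0.127 when scaled to the covered Mb, and male ΔEcad lines lay next to the female Ecad lines.

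**Figure D4:**
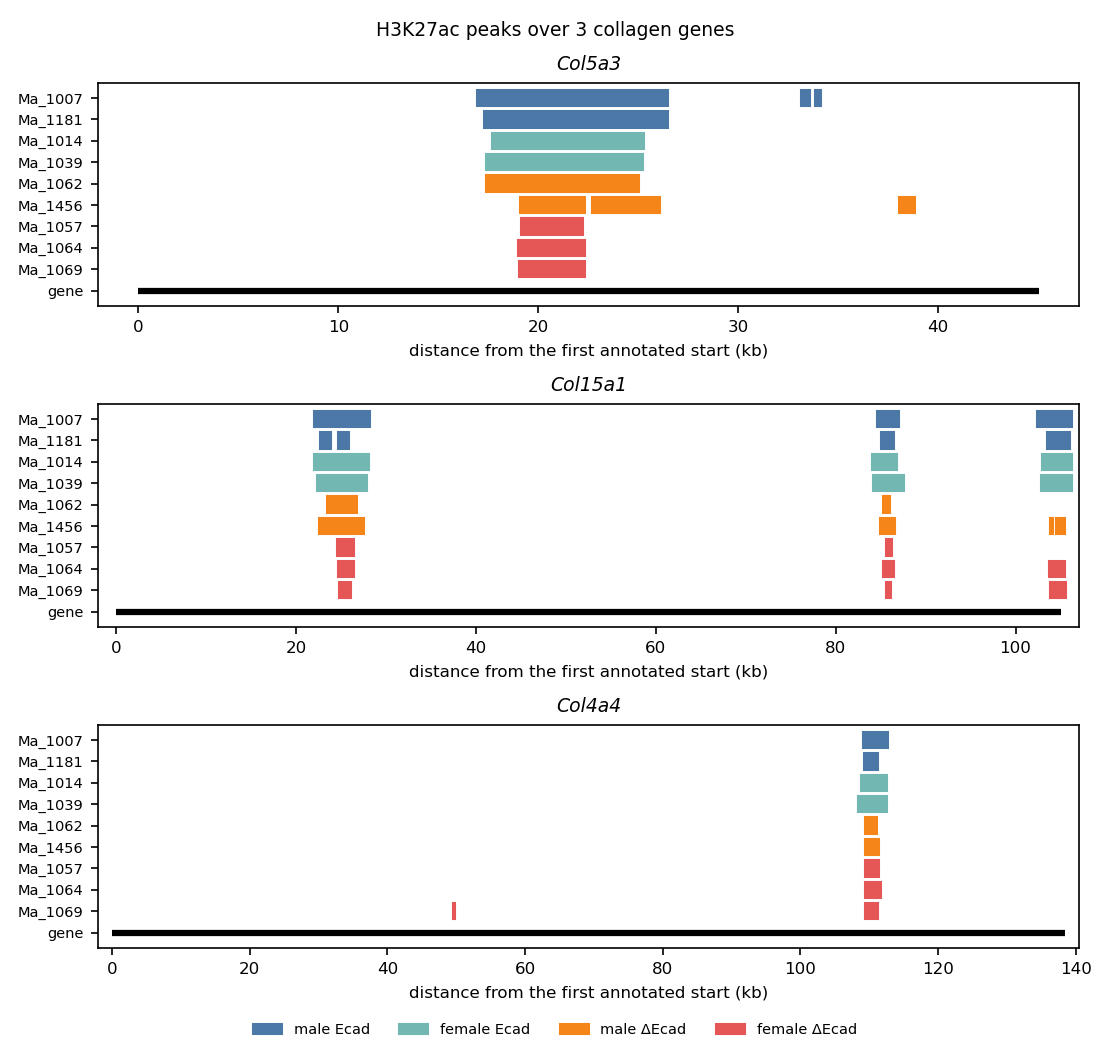
Peaks (bars) of each line over Col5a3, Col15a1 and Col4a4, drawn by distance in kb from the first annotated start of the gene in the direction of transcription, coloured by group. The black line is the gene. The Col5a3 peak spans 3.07 to 3.37 kb in the female ΔEcad lines and 6.65 to 9.53 kb in the others.

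Among the other fibrillar collagens, calls were scattered. Col11a2, a chain of cartilage type XI collagen, had a promoter call in Ma_1007, Ma_1014, Ma_1039 and Ma_1456, that is in 3 of 4 Ecad and 1 of 5 ΔEcad lines (Fisher's exact test, two-sided, p = 0.206). Its peaks were weak, with −log10 q at the 11.4th to the 43.0th percentile of the list. Its acetylated length was 0.880, 0, 1.17 and 0.767 kb in the Ecad lines and 0, 0.318, 0, 0 and 0 kb in the ΔEcad lines (difference -0.641 kb, p = 0.0476, adjusted p = 0.284, exact permutation test). The groups overlap, since Ma_1181 had no peak. With all lists cut to 20741 peaks the difference was -0.385 kb (p = 0.167, exact permutation test), and among the peaks above the median −log10 q it was 0. Col2a1, the main cartilage collagen, was called in Ma_1014 alone and Col5a1 in Ma_1456 alone. The Col2a1 call lay 14.8 kb after its first start and was lost with first starts or coding starts alone. Gene-body peaks were seen in 8 lists at Col11a1, in 2 at Col5a2 and Col24a1 each, and in Ma_1456 alone at Col1a2, the second chain of type I collagen (2.18 kb). No fibrillar promoter was called in the 3 female ΔEcad lines, against 0 to 2 in the other 6 lines, with 0 in Ma_1181 and Ma_1062. Of all protein-coding promoters, 25.3 to 33.3% were called in the female ΔEcad lines and 38.4 to 48.6% in the others. The summed acetylated length of the 11 genes was 5.29 to 6.20 kb in the female ΔEcad lines and 8.65 to 15.0 kb in the others, most of it from Col5a3. Per Mb of list these overlapped, at 134 to 210 bp and 204 to 291 bp.

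Col15a1 and Col18a1 encode the related basement membrane collagens XV and XVIII, whose C-terminal parts release restin and endostatin. Col15a1 (chromosome 4, 47208161 to 47313167, plus strand) was called in all 9 lists, but not at its first promoter. The peak covered position 47233267, the start of a non-coding transcript of the gene, with summits 25.4 to 25.6 kb after the first start. The nearest peak to the first start was 10.9 to 24.6 kb away. With starts of protein-coding transcripts alone, a choice made after the data had been seen, Col15a1 had no promoter call in any list. Another 2 regions recurred, one 86.2 kb into the gene in 9 lists and one at its 3′ end in 7.

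The internal peak of Col15a1 differed widely in −log10 q and in its rank within a list. The lists themselves differed in median −log10 q, from 20.3 (Ma_1069) to 42.2 (Ma_1181). The −log10 q of the Col15a1 peak was 1228 in Ma_1007, 600 in Ma_1014, 327 in Ma_1039 and 261 in Ma_1456, between the 98.0th and the 99.9th percentile of their lists. It was 75 in Ma_1062, 64.3 in Ma_1057, 59.1 in Ma_1064, 37.7 in Ma_1181 and 26.5 in Ma_1069, between the 47.0th and the 82.0th percentile. The high lines were Ecad except for Ma_1456, and the low lines were ΔEcad except for Ma_1181. Both sexes held high and low lines, but every female ΔEcad line was low. The acetylated length of the gene was 12.3, 6.32, 12 and 12.1 kb in the Ecad lines (Ma_1007, Ma_1181, Ma_1014 and Ma_1039). It was 4.15, 7.93, 2.61, 4.87 and 3.46 kb in the ΔEcad lines (Ma_1062, Ma_1456, Ma_1057, Ma_1064 and Ma_1069). Means were 10.7 ± 2.92 kb (SD, n = 4) and 4.61 ± 2.04 kb (SD, n = 5), a difference of -6.09 kb with Ma_1181 below Ma_1456 (p = 0.0238, adjusted p = 0.258, exact permutation test). Scaled to the covered Mb the p was also 0.0238 (adjusted p = 0.475, exact permutation test), while 8.04% of all genes were lower. Against the other 6 lines the female ΔEcad lines differed by -5.50 kb (p = 0.0357, adjusted p = 0.160, exact permutation test), which scaled to the covered Mb gave p = 0.0714.

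Col18a1 had its longest peaks in the male Ecad lines. Its acetylated length was 3.85 kb in Ma_1007 and 7.99 kb in Ma_1181, against 0.624 and 0.242 kb in the female Ecad lines, 0.771 kb in Ma_1062, 0.793 kb in Ma_1069 and 0 in the other 3 ΔEcad lines. Both male Ecad values stood above the other 7, but with all lists cut to 20741 peaks Ma_1007 was at 0 and Ma_1181 alone stood out (7.53 kb). The promoter, at a protein-coding start 77.2 kb inside the gene by its peak summit, was called in Ma_1181 alone. Between ΔEcad and Ecad lines the length differed by -2.86 kb (p = 0.0476, adjusted p = 0.284, exact permutation test), without Ma_1181 by -1.26 kb (p = 0.107), and with only the peaks above the median −log10 q of each list by -1.13 kb (p = 0.444). Scaled to the covered Mb the p was 0.103 (exact permutation tests). With 2 lines in 3 of the 4 groups of sex and genotype, the excess in male Ecad lines itself was not tested.

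Of the 6 type IV genes, none had a promoter call, and the adjoining pair Col4a3 and Col4a4, which encodes chains of kidney and lung basement membranes, carried most peaks. One region inside Col4a4 (chromosome 1, 82474068 to 82478419), 111 kb from the first start, was present in all 9 lists. It was chosen for description after its values were seen. Its −log10 q was at the 83.0th to the 96.7th percentile of each list. Its width was 3.61, 1.97, 3.78 and 4.21 kb in the Ecad lines (Ma_1007, Ma_1181, Ma_1014 and Ma_1039) and 1.79 to 2.39 kb in the ΔEcad lines. The gene's length differed by -1.28 kb between ΔEcad and Ecad lines (p = 0.0476, adjusted p = 0.284, exact permutation test), but scaled to the covered Mb the p was 0.333. The summed length of the 8 basement membrane genes was 18.4 to 21.6 kb in the 4 Ecad lines and 5.27 to 17.5 kb in the 5 ΔEcad lines. Per Mb of list these groups overlapped, at 321 to 476 bp and 154 to 363 bp.

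**Figure D5:**
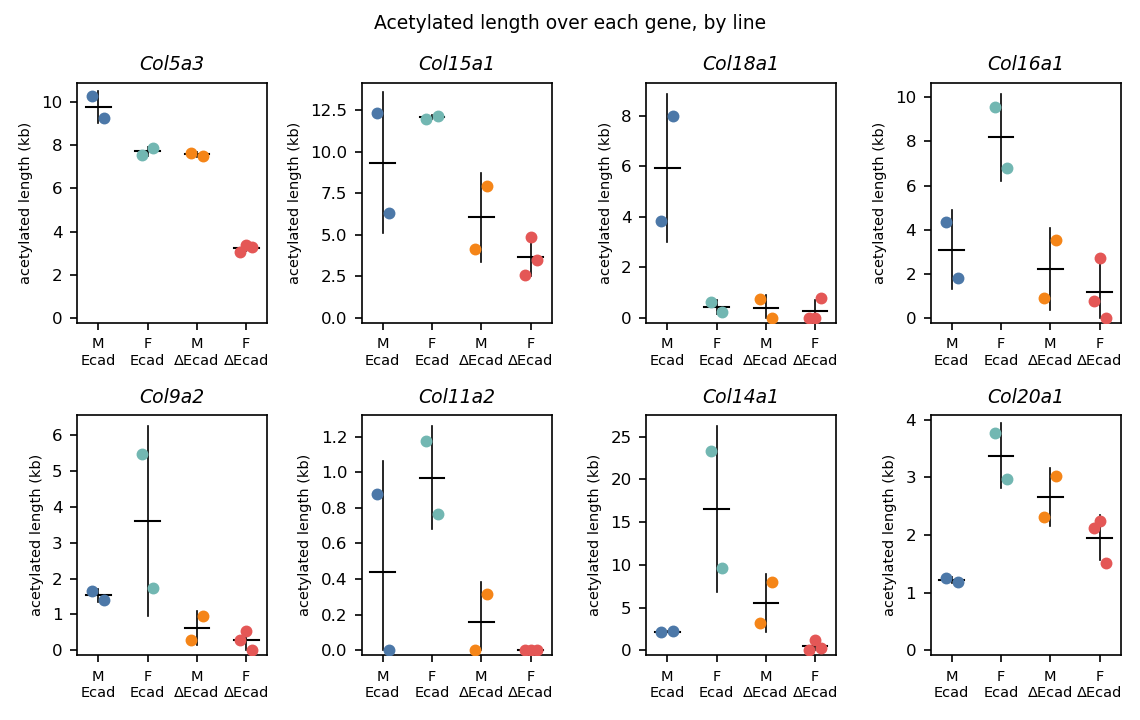
Acetylated length (kb) over 8 collagen genes in each line, by sex (M, F) and genotype. Points are lines, bars the mean and lines 1 SD, cut at 0. In Col5a3 the 3 female ΔEcad lines lie at 3.07 to 3.37 kb and all other lines at or above 7.48 kb, and Col18a1 is highest in the 2 male Ecad lines.

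The largest group of marked collagens were the FACITs, molecules that sit on the surface of fibrils. Of 9 such genes, 5 had a promoter call in at least 1 list and the other 4 had peaks over the gene. Of all protein-coding genes, 21.1% were called in all 9 lists, 31.8% in some and 47.1% in none, so the FACIT promoters were called about as often. No peak over the gene in any list was found for 38.2% of all genes. Col20a1 (chromosome 2, 180986535 to 181018363) was called in all 9, near its first start, a coding one. The peak reached the start itself in 5 lists and began 0.0910 to 0.630 kb after it in 4, with summits 0.885 to 1.52 kb downstream. Its fold enrichment was 58.0 in Ma_1014 and 31.2 in Ma_1039, 14.3 to 21 in 4 of the ΔEcad lines and 13.5 in Ma_1069, but 8.26 in Ma_1007 and 6.04 in Ma_1181. The male Ecad lines were the lowest, although Ma_1007 has the longest list. Its acetylated length was also lowest there, at 1.25 and 1.18 kb in the male Ecad lines, 3.77 and 2.98 kb in the female Ecad lines, and, for ΔEcad, 2.31 and 3.02 kb in males against 2.11, 2.24 and 1.51 kb in females. None of the 3 comparisons had a p under 0.05 for this gene (0.976 by genotype, 0.5 for the female ΔEcad lines and 0.341 by sex, exact permutation tests).

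Col16a1 (chromosome 4, 130047840 to 130099283) was called in every list but that of Ma_1069. The recurrent peak lay at coding starts inside the gene, with summits 7560 to 7820 bp after the first start, and the first start itself was called in Ma_1014, Ma_1039 and Ma_1456. The acetylated length was 4.35, 1.83, 9.56 and 6.79 kb in the Ecad lines (Ma_1007, Ma_1181, Ma_1014 and Ma_1039) and 0.900, 3.52, 0.777, 2.71 and 0 kb in the ΔEcad lines (Ma_1062, Ma_1456, Ma_1057, Ma_1064 and Ma_1069). The female Ecad lines were highest, and the genotypes overlapped. The difference was -4.06 kb (p = 0.0476, adjusted p = 0.284, exact permutation test). The p was 0.0635 when scaled to the covered Mb, and without Ma_1014 the difference was -2.75 kb (p = 0.107, exact permutation tests).

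Col9a2, a chain of the cartilage FACIT type IX, was the one collagen whose promoter calls had an unadjusted p under 0.05. It was called in Ma_1007, Ma_1014 and Ma_1039, or 3 of 4 Ecad lines, and in 0 of 5 ΔEcad lines (p = 0.0476, Fisher's exact test, two-sided, adjusted p = 1 over 21951 genes). Lower calls of this kind were found at 2.98% of all promoters and higher ones at 0.0273%. The call turned on the 1 kb limit and on the choice of starts. With first starts alone or coding starts alone, choices made after the data had been seen, Col9a2 was called in 1 list. The peak began 927 and 936 bp from the nearest start in Ma_1007 and Ma_1039, just inside the limit, and 1028 and 1138 bp from it in Ma_1181 and Ma_1456, just outside. With a limit of 2 kb Col9a2 was called in 4 of 4 Ecad and 4 of 5 ΔEcad lines. Its acetylated length was 1.67, 1.41, 5.47 and 1.73 kb in the Ecad lines and 0.278, 0.956, 0.300, 0.541 and 0 kb in the ΔEcad lines. These groups did not overlap (difference -2.15 kb, p = 0.00794, the smallest possible, adjusted p = 0.210, exact permutation test), and p was the same after scaling to the covered Mb. A lower length at an unadjusted p under 0.05 was found in 16.6% of all genes with a peak, and a higher one in 0.169%. Scaled to the covered Mb these shares were 8.04 and 1.99%. Without Ma_1014 the difference was -1.19 kb (p = 0.0179, exact permutation test).

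Col14a1, which encodes a FACIT of skin and tendon, had no promoter call but the greatest mean acetylated length of the non-fibrillar genes outside basement membranes. The length was 2.14 and 2.24 kb in the male Ecad lines, 23.4 and 9.62 kb in the female Ecad lines, and, for ΔEcad, 3.14 and 7.98 kb in males against 0, 1.16 and 0.311 kb in females. Ma_1014 stood far above the rest, and all 3 female ΔEcad lines lay below the other 6. The difference of the female ΔEcad lines was -7.59 kb (p = 0.143, adjusted p = 0.334, exact permutation test). The signal was spread over 14 intronic regions, none of them in more than 7 lists.

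Of the rest, Col6a3 had a called promoter in Ma_1064 alone, Col8a1 and Col10a1, the network-forming collagens of vessels and of growth plate cartilage, in Ma_1456 alone, Col28a1 in Ma_1007 and Ma_1456, Col9a3 in Ma_1007 and Ma_1062, Col9a1 in Ma_1014, Ma_1057 and Ma_1069, and Col25a1 in Ma_1007, Ma_1039 and Ma_1064. Several of these calls lay at starts inside the gene. With first starts alone or coding starts alone, choices made after the data had been seen, Col6a3 lost its call. Col28a1 and Col9a3 were then called in 1 list each. Col9a1 lost its calls with first starts and kept 1 with coding starts, and Col25a1 kept 3 and 1. No comparison of the calls of these genes, as first listed, reached an unadjusted p under 0.05. Some genes ran against the lower lengths of the ΔEcad lists and are named here after their values were seen. Col8a1 measured 4.44, 0, 1.66 and 2.35 kb in the Ecad lines and 0, 13.2, 8.42, 12.4 and 3.72 kb in the ΔEcad lines (p = 0.135, adjusted p = 0.430, exact permutation test). Col25a1, a transmembrane collagen, measured 0 to 11.4 kb in the Ecad lines and 1.85 to 13.1 kb in the ΔEcad lines (p = 0.595, exact permutation test). Ma_1456 was the list with most collagens of its own. Col1a2, Col5a1, Col4a5 and Col10a1 had peaks in that list alone, against 2 such genes in Ma_1014 (Col2a1 and Col8a2), 1 in Ma_1007 (Col22a1, 7.08 kb) and 0 in each of the other 6. The share of all protein-coding genes with peaks in 1 list alone was not counted, so these numbers have no background.

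Over all members, 135 distinct regions were found in 32 genes once overlapping peaks of the lists were merged. Of these 63 were in 1 list alone and 6, in 5 genes, were in all 9. Those 6 were the regions of Col5a3, Col4a4 and Col20a1, a pair in Col15a1 and one at the 3′ end of Col23a1, which lay within 1 kb of the start of its neighbour Phykpl. The strongest summit of a region lay in an intron in 118 cases, in an exon in 9 and outside the gene in 8. Only 8 regions lay within 1 kb of the start of another gene.

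Most collagens, like most genes, had a lower mean acetylated length in the ΔEcad lines, and no single gene passed the adjusted test. Of the 32 genes with a peak, 22 had a lower mean acetylated length in ΔEcad than in Ecad lines (68.8%), against 79.7% of 13574 genes, with medians of -414 bp and -383 bp. An unadjusted p under 0.05 was reached by 9 of 32 (28.1%), all lower: Col4a4, Col5a3, Col9a2, Col11a2, Col15a1, Col16a1, Col17a1, Col18a1 and Col23a1. Over all genes 16.6% reached it with a lower and 0.169% with a higher length, and the lowest adjusted p of any gene was 0.210. Scaled to the covered Mb the count was 5, against 8.04% lower and 1.99% higher. The peaks of Col17a1, a hemidesmosome collagen of keratinocytes, all lay at or after its 3′ end. Those of Col23a1 were at its 3′ end, near Phykpl, in 9 lists and further inside the gene in Ma_1007 and Ma_1181 alone. For the female ΔEcad lines against the others, 28 of 32 genes were lower (85.2% of all genes) and 2 (6.25%) reached an unadjusted p under 0.05, Col5a3 and Col15a1, against 24.4% lower and 1.5% higher over all genes. Per Mb of list, Col5a3 was lower and Col25a1 higher (134 bp per Mb, p = 0.0476, adjusted p = 0.268, exact permutation test), against 12.8% lower and 4.93% higher. For female against male lines, 20 of 32 were lower (80.8% of all genes) and none reached it, against 13.2% lower and 0.354% higher over all genes. By promoter calls, 0 collagens reached it in either of these comparisons. Over all genes 4.36% were lower and 0.105% higher for the female ΔEcad lines, and 1.6% lower and 0.0273% higher for sex. Per Mb of list, 0 collagens were lower and 1, Col4a4, higher in female than in male lines, against 7.21% lower and 1.04% higher over all genes. No collagen passed an adjusted p of 0.05 in any comparison by either test, and neither did any other gene.

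Within each sex, the number of promoters called was 6 and 7 in the female Ecad lines and 3 to 5 in the female ΔEcad lines. It was 4 and 8 in the male Ecad lines and 4 and 8 in the male ΔEcad lines. The share of all protein-coding promoters called was also lower in the female ΔEcad lines, at 25.3 to 33.3% against 40 and 41.1%. In males it was 38.4 and 39.5% in ΔEcad and 43.8 and 48.6% in Ecad lines. The summed acetylated length of the 44 genes was 65.7 and 93.4 kb against 28.9 to 53.6 kb in females, and 53.6 and 89.4 kb against 32.9 and 82.8 kb in males. With 3 lines against 2 and 2 against 2 the smallest p of an exact test is 0.100 and 0.333, and no test was made. Per Mb of list the sums were 1436 and 2041 bp against 931 to 1356 bp in females, and 1316 and 1330 bp against 887 and 1713 bp in males.

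The genes that make, cut and read collagen were marked about as often as all genes. Of 45 such genes, 10 (22.2%, Ma_1069) to 23 (51.1%, Ma_1007) had a called promoter, against 25.3 and 48.6% of all promoters in those lists. In all 9 lists 9 were called (20%), against 21.1% of all genes. These were P4ha1 and P4hb, subunits of the enzyme that hydroxylates proline in the chains, Plod2, which hydroxylates lysine, Serpinh1, the collagen chaperone HSP47, the export receptor gene Mia2, the cross-linking oxidase Loxl3, the receptors Ddr1 and Itgb1, and the protease Mmp14. Of 18 folding genes, 5 to 13 were called in a list. Of 13 processing and cross-linking genes, 1 to 4 were called, and Lox, Loxl1, Loxl2 and Loxl4 in no list. Of the 7 receptors 2 to 4 were called, and of 7 breakdown genes 1 or 2.

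By promoter calls, 1 of the 45 was lower in ΔEcad than in Ecad lines at an unadjusted p under 0.05, and 0 were higher. This was Colgalt1, which glycosylates collagen, with 1 of 5 against 4 of 4 calls (p = 0.0476, adjusted p = 1, Fisher's exact test). The same gene had 0 of 3 calls in the female ΔEcad lines and 5 of 6 in the others (p = 0.0476, adjusted p = 1, Fisher's exact test). Lower calls were found at 2.98% of all promoters in the first comparison and at 4.36% in the second, and higher ones at 0.0273 and 0.105%. By acetylated length, 4 pathway genes were lower in ΔEcad lines (Serpinh1, Adamts3, Loxl2 and Mrc2), 6 in the female ΔEcad lines (P4hb, Ppib, Plod3, Serpinh1, Itgb1 and Mmp2) and 4 in female against male lines (P4hb, Ppib, Plod3 and Colgalt1), and 0 were higher, all at an unadjusted p under 0.05. Of the 36 with a peak these are 11.1, 16.7 and 11.1%, each below the 16.6, 24.4 and 13.2% of all genes that were lower. For Serpinh1 the mean was 1.52 ± 0.203 kb (SD, n = 3) in the female ΔEcad lines and 3.02 ± 0.321 kb (SD, n = 6) in the others (p = 0.0119, adjusted p = 0.0915, exact permutation test).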

How the data were processed

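H3K27ac ChIP-seq peak lists of 9 melanoma cell lines were used. Per the labels and processing notes, the authors aligned reads to mm10 with Bowtie2 2.4.5 and called peaks for each line with MACS2 2.2.7.1. deepTools 3.5.1.0.0 is also named. The deposited lists give for each peak its −log10 q-value (all above 5), −log10 p-value, linear fold enrichment and a score, the whole part of 10 times −log10 q. Which of the 4 inputs served which line is not given in the sources used here. Genes were taken from GENCODE M21. Promoter calls were compared by Fisher's exact test over 21951 protein-coding genes and acetylated lengths by exact permutation tests over 13574, all two-sided, with Benjamini-Hochberg adjustment over all of them in each of 3 comparisons (Python 3.11.15, numpy 2.4.6, scipy 1.17.1, figures with matplotlib 3.10.9). The tests were checked on simulated data. Lines were grouped by the labels, which give no batch. The genes named in full are Col11a2, Col5a3, Col15a1, Col18a1, Col14a1, Col16a1, Col20a1 and Col9a2, taken by a rule on class, calls, length and unadjusted p. All other genes were chosen after their values were seen. The members and lists were chosen with earlier results of these data known.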

Additional observations from a re-analysis of the deposited data

Results flagged for a closer look

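In 55 checks of 11 measures over 5 groups of lines, 5 single lines stood far from the rest of their group. The limit is meant to flag about 1 in 20 by chance in normal, independent values. The checks share lines and genes and some lengths are 0, so that rate need not hold here. For Col11a2, Ma_1456 was the only ΔEcad line with a peak (0.318 kb, the other 4 at 0). With the others at 0 a peak of any length would have been flagged. For Col15a1, Ma_1181 (6.32 kb) lay below the other 3 Ecad lines. For Col14a1, Ma_1014 (23.4 kb) lay above the other 5 lines outside the female ΔEcad group. For Col9a2, Ma_1014 (5.47 kb) lay above the other Ecad lines, and above the other 5 lines outside the female ΔEcad group.

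For a pair of genes the genotype difference ran in opposite directions in the sexes. For Col14a1, the ΔEcad minus Ecad difference in females was -19.4 kb relative to that in males, and for Col20a1 it was -2.87 kb. In both genes every female ΔEcad line lay below both female Ecad lines, and both male ΔEcad lines lay above both male Ecad lines. The pair came from a search of 11 measures, and the share of all genes with this pattern was not counted. The difference between the sexes was not tested.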

How the results depend on the processing

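Per Mb of list the sign of the length difference turned for 2 of 32 collagens by genotype (Col20a1 and Col28a1), 4 for the female ΔEcad lines (Col24a1, Col4a2, Col4a4 and Col20a1) and 3 by sex (Col11a1, Col15a1 and Col6a3), none of them past an unadjusted p of 0.05 before scaling. The mean summed length was lower in female than in male lines in kb (54.7 and 64.6) and higher in bp per Mb (1349 and 1311). By promoter calls, 1 collagen was lower in ΔEcad lines, and 0 with a window of 500 bp, with peak summits, with first starts or with coding starts. Leaving out 1 line gave 0 to 1. Over all genes, 661 promoters were lower or higher, 673 to 701 with these settings and 141 to 293 without 1 line. By acetylated length, 9 were lower, 5 per Mb of list, and 3 to 7 without 1 line. Over all genes, 2272 lengths were lower or higher, 1362 per Mb of list and 926 to 1956 without 1 line. For the female ΔEcad lines, 0 promoters became 1 with a window of 2 kb, and 2 lengths became 1 to 3 without 1 line (3 without Ma_1456). Over all genes, 980 promoters became 951 with 2 kb, and 3518 lengths became 1961 to 3098 without 1 line. For sex, 0 lengths became 1 per Mb of list and 0 to 2 without 1 line (2 without Ma_1456). Over all genes, 1835 became 1120 per Mb of list and 801 to 1656 without 1 line. All these counts are at an unadjusted p under 0.05. Without 1 line the smallest p of both exact tests rose too, by genotype from 0.00794 to 0.0179 or 0.0286. The mean number of promoters called per line was 5.44, and 7.44 with 2 kb, 2.78 with first starts and 3.33 with coding starts. The mean number of collagens with a gene-body peak was 15.4, and 9.11 with only the stronger peaks of each list. The 2 choices of starts were added after seeing the data. No paired analysis was possible because replicate numbers only follow the order of deposition. Depth is unknown, and it limits what a missing peak shows.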
